A study of Homo sapiens with 9 samples.

Results

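The transcripts described here are those of 10 keratin genes in SW480 colon cancer cells without and with BASP1, a signaling protein and transcriptional corepressor. The genes are grouped by keratin class and were picked with earlier results of these data known. They are the simple epithelial keratins KRT7, KRT8, KRT18, KRT19, KRT20, KRT23 and KRT80 (7 genes) and the basal or squamous keratins KRT6A, KRT16 and KRT17 (3 genes), and all 10 were found among the 63677 gene identifiers of the count files. SW480 is an established human line from a colorectal adenocarcinoma, labelled wild type here, and it received no construct. SW480-B, labelled exogenous BASP1, is a geneticin-selected cell line grown from a single cell after nucleofection with pcDNA3-BASP1, in which the cytomegalovirus promoter drives the BASP1 coding sequence. SW480-gRNA-B-all, labelled endogenous BASP1, was made by lentiviral transduction with dCas9-VP64, with the MS2-P65-HSF1 activator and with a pool of sgRNAs against the BASP1 promoter, starting from a single-cell clone with the activator proteins, and its cells are called CRISPRa cells here (activation of the gene's own promoter by dCas9). Each line was sequenced as 3 libraries (n = 3). None of the libraries came from SW480 with an empty vector or with the activator proteins but no sgRNAs. BASP1, the constructs and the choice of a clone therefore cannot be told apart.

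Keratins are intermediate filament proteins of epithelial cells. A filament is built from pairs of an acidic type I keratin (of the members KRT16, KRT17, KRT18, KRT19, KRT20 and KRT23) and a neutral to basic type II keratin (KRT6A, KRT7, KRT8 and KRT80), and its ends are held at desmosomes and hemidesmosomes. Simple epithelia such as the lining of the gut express KRT8 and KRT18 with KRT19, and differentiated colon cells add KRT20. KRT5 is the type II keratin of basal cells of stratified epithelia, while KRT6A, KRT16 and KRT17 are known from skin appendages, from activated keratinocytes in wounds and from squamous tumors.

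The 9 libraries held 25238831 to 29355669 counts on genes. At this depth 3 counts, taken as the limit below which a gene is not detectable, correspond to a level of 0.102 to 0.119 CPM (counts scaled to library size), and all limits and counting intervals cover counting error only. BASP1 was at 11.3, 8.09 and 0.688 CPM in SW480, at 266, 270 and 255 CPM in SW480-B and at 167, 308 and 305 CPM in CRISPRa cells (replicates 1, 2 and 3 in this and every following list). Of the genes with a mean of at least 1 CPM, between 9.50% and 25.3% differed by more than 2-fold between SW480 replicates, 7.02% to 11.6% between SW480-B replicates, and 0% between CRISPRa replicates 2 and 3 against 6.37% and 6.38% for their other pairs. CRISPRa replicates 2 and 3 differed by more than counting noise (chi-square per degree of freedom 3.13, against 80.9 to 296 in the other pairs), which does not show whether they are separate RNA samples or 1 RNA. They were counted as 2 samples here, and the results with both summed to 1 library are given beside the calls that they change; the genes called against SW480 then fall from 1055 to 97. Between 90.2% and 94.97% of aligned bases were in mRNA, lowest in SW480-B replicate 1. The p-values measure only the spread between these samples, since the labels do not say whether they are separate cultures.

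Of 11 markers of colon epithelium, 8 reached at least 1 CPM in every SW480 library, but only 7 did so in SW480-B and in CRISPRa cells. CDH17, an intestinal cadherin, had 755 counts in SW480 (1.63 to 17.4 CPM) and 0 in each BASP1-expressing line. It was called lower in CRISPRa cells (edgeR adjusted p = 0.0333) and in SW480-B (edgeR adjusted p = 0.0415). These calls were lost without SW480 replicate 2 or any replicate of the BASP1-expressing line (edgeR adjusted p up to 0.124 and 0.223). With CRISPRa replicates 2 and 3 summed, the first was also lost (edgeR adjusted p = 0.0856). Villin (VIL1), of the brush border, was called lower in both lines, with log2 fold changes of −4.44 ± 0.70 in CRISPRa cells (edgeR adjusted p = 0.0188) and −2.94 ± 0.45 in SW480-B (edgeR adjusted p = 0.0255). The colon marker list includes the members KRT8, KRT18, KRT19 and KRT20 and is not a separate check of them. Of 9 markers tested in SW480-B, 4 had a log2 fold change above 0 and 5 below. The median of −0.000863 was the value of KRT19. Outside the keratins, EPCAM (−0.95), VIL1, CDH17 and GPA33 (−0.30) lay below 0, and CDH1 (0.10) and CDX2 (0.87) above. Of these 9 markers 2 were called lower in SW480-B, beside 1.25% of all genes. In CRISPRa cells all 8 tested lay below 0 (median −0.90), and 3 were called lower, beside 4.66% of all genes. Of 12 markers of keratinocytes or squamous cells, only KRT5, KRT10, KRT13 and DSC3 reached 1 CPM in every SW480 library, and KRT14, the usual partner of KRT5 in basal cells, was at 0.524, 0.451 and 0.398 CPM. Involucrin (IVL) had 0 counts in SW480 and 1 count in each other line. The summed squamous markers lay between 1447 and 6417 CPM in SW480, 2090 and 4281 CPM in SW480-B and 247 and 610 CPM in CRISPRa cells, and KRT5 made up most of these sums. Summed markers of fibroblasts (at most 11.03 CPM), leucocytes (at most 6.00 CPM) and endothelium (at most 4.33 CPM) were low in every library. Single fibroblast markers differed within these low sums. Lumican (LUM) had 276 counts in SW480, 1 in SW480-B and 0 in CRISPRa cells and was called lower in both (edgeR adjusted p = 0.0276 and 0.0323), as was KRT17. The collagen gene COL1A1 was higher in CRISPRa cells, with a log2 fold change of 1.21 ± 0.25 (edgeR adjusted p = 0.0362). The part of LUM and COL1A1 in the keratin results was not tested. VIL1, LUM and COL1A1 lost their calls in CRISPRa cells without SW480 replicate 2 or CRISPRa replicate 2 or 3. LUM and COL1A1 also lost theirs without CRISPRa replicate 1. The highest edgeR adjusted p was 0.0864, 0.119 and 0.179. With CRISPRa replicates 2 and 3 summed, all were lost (edgeR adjusted p = 0.0794, 0.0834 and 0.1625). In SW480-B, VIL1 and LUM lost theirs without SW480 replicate 2 or any SW480-B replicate (edgeR adjusted p up to 0.222).

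The members covered a wide range of levels. Levels of different genes are compared here as CPM per kilobase of the exons of the canonical transcript. In SW480, KRT8 was highest with 2720 ± 209 CPM per kb (SD, n = 3), followed by KRT18 with 1907 ± 718, KRT19 with 734 ± 271, KRT23 with 273 ± 160 and KRT80 with 42.1 ± 6.22 CPM per kb, and no neighbours among these 5 overlapped between libraries. KRT6A (6.07 ± 1.27 CPM per kb), KRT17 (4.81 ± 3.12), KRT7 (3.74 ± 0.407) and KRT16 (3.15 ± 3.23) followed, and their libraries overlapped from each to the next. KRT20 was the lowest with 0.2499 ± 0.2174 CPM per kb. SW480-B had the same order from KRT8 to KRT80, although KRT8 and KRT18 overlapped there. In CRISPRa cells, KRT23 (102 ± 46.2 CPM per kb) and KRT80 (85.6 ± 0.854) overlapped, KRT7 stood in 6th place with 18.9 ± 3.11 CPM per kb, and KRT6A, KRT20 and KRT17 were each at or below 0.103 CPM per kb.

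**Figure D1:**
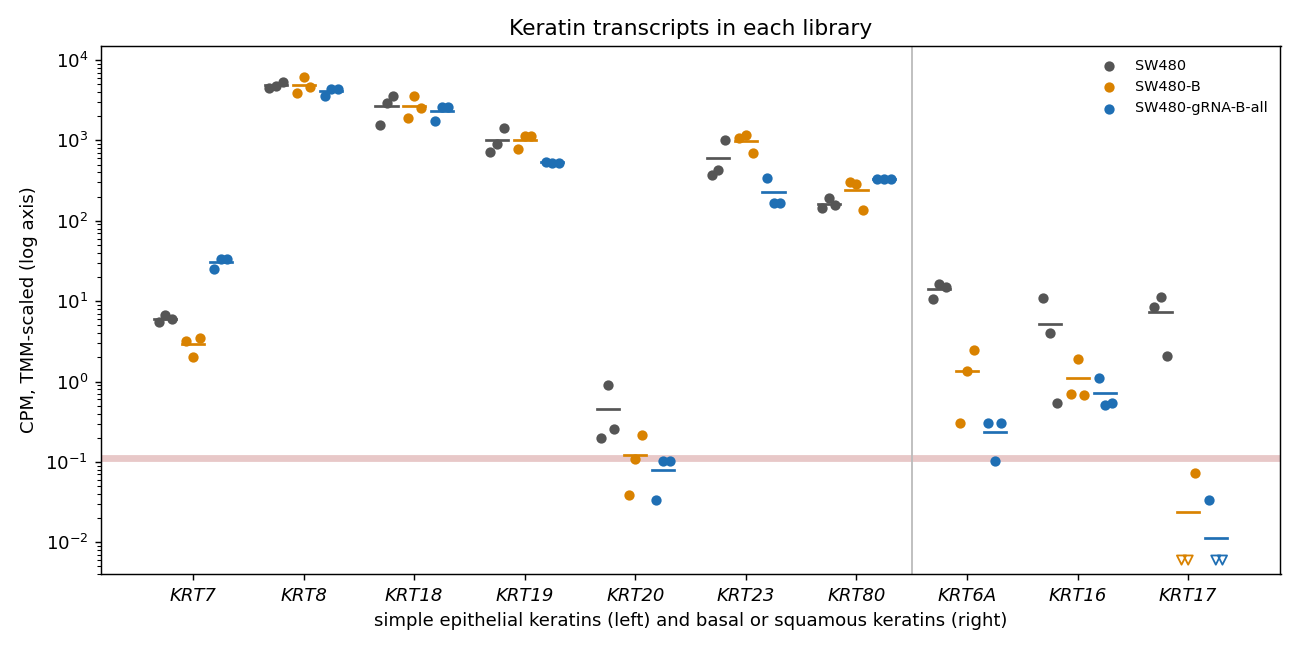
Level of the 10 keratin transcripts in each library, as TMM-scaled CPM on a log axis, with a point per library, a short line for the mean of each line (n = 3) and open triangles for libraries with 0 counts. The pink band is the level of 3 counts (0.102 to 0.119 CPM); KRT17 lies below it in every BASP1-expressing library, and KRT7 is highest in all 3 SW480-gRNA-B-all libraries.

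Which of these keratins differ between the lines was tested with edgeR's quasi-likelihood test over all genes, with a gene taken as called at a Benjamini-Hochberg adjusted p under 0.05 together with a more than 2-fold change. In CRISPRa cells against SW480, 9 of the 10 members passed the filter on low counts and 3 were called, beside 6.55% of the 16100 genes tested. KRT7 rose (1 member higher, beside 1.89% of all genes), and KRT6A and KRT17 fell (2 members lower, beside 4.66%). For SW480-B, 9 members were tested against SW480 and 1 was called, beside 1.34% of 16106 genes. It was KRT17, which fell (genes called lower made up 1.25%), and no member was called higher (0.0931% of all genes were). In CRISPRa cells against SW480-B, 7 members were tested and 2 were called, beside 6.68% of 15846 genes. KRT7 was higher (2.31% of all genes were called higher) and KRT23 lower (4.37% were called lower). KRT6A and KRT17 did not pass the filter between the BASP1-expressing lines. Against SW480, KRT6A and KRT17 in CRISPRa cells and KRT17 in SW480-B passed it only through the SW480 libraries. A gene admitted in that way can hardly be called higher, so the direction of these calls is not a separate result. The median log2 fold change of the tested members was −0.98, 0.00 and −0.26 in these comparisons, where that of all genes tested was −0.05, 0.00 and 0.00. In RNA of whole cultures, fewer cells that express a gene and less of its RNA per cell cannot be told apart. The comparisons share libraries pairwise, and each is therefore given with its own values.

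These counts of called members depended on single libraries. The number of all genes called also moved between these fits, and its range in each comparison is given with the alternatives below. In CRISPRa cells against SW480, 0 members were called without SW480 replicate 2, a fit in which 8 of all genes were called. Without replicate 1, 2 or 3 of CRISPRa cells 2 members were called, beside 178, 78 and 76 of all genes. With their replicates 2 and 3 summed 2 members were called, beside 97 of all genes. Without SW480 replicate 1 or replicate 3 the count was 4, beside 1059 and 2659 of all genes. For SW480-B against SW480, 0 members were called without SW480 replicate 2 or without any of the SW480-B replicates. Without SW480-B replicate 1, 0 of all genes were called, so that fit tells nothing of the members in particular. The count was 2 without SW480 replicate 1, 3 without SW480 replicate 3 and 2 when same-numbered libraries were paired by a replicate block. Between the BASP1-expressing lines the count was 4 without SW480-B replicate 1 and 2 in every other fit without 1 library.

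**Figure D2:**
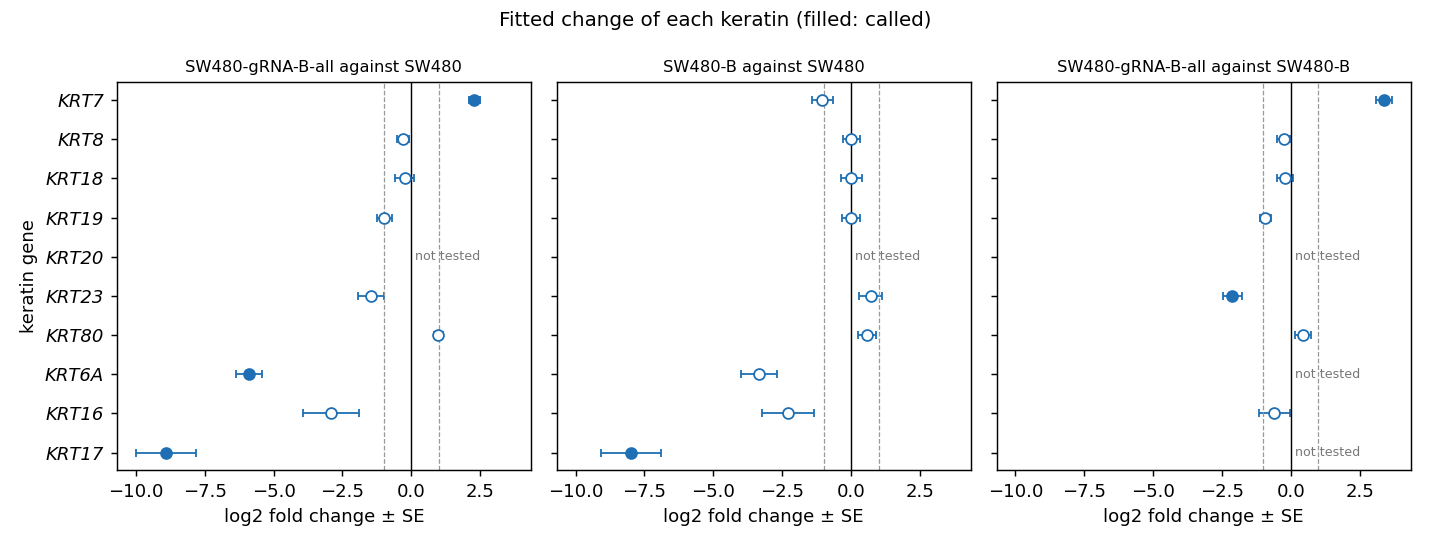
Fitted log2 fold change with its SE for each member in the 3 comparisons, by edgeR's quasi-likelihood test over 6 libraries each. Filled points were called, open points were not, and dashed lines mark a 2-fold change; KRT6A, KRT16 and KRT17 lie left of 0 in both comparisons with SW480, while KRT8 and KRT18 lie within 0.29 of 0 in every comparison.

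KRT8 and KRT18, the partners that form the basic filament of simple epithelia, did not differ detectably between the lines. KRT8 was at 4535, 4759 and 5263 CPM in SW480, at 3853, 6245 and 4566 CPM in SW480-B and at 3542, 4375 and 4368 CPM in CRISPRa cells. All CRISPRa libraries were below all SW480 libraries, but the difference was small, with a log2 fold change of −0.29 ± 0.22 (SE, edgeR adjusted p = 0.412). KRT18 was at 1573, 2962 and 3550 CPM in SW480, at 1900, 3594 and 2554 CPM in SW480-B and at 1751, 2640 and 2614 CPM in CRISPRa cells. SW480 replicate 1 held the least KRT18 of the 9 libraries, and the lines overlapped. The log2 fold change of KRT18 was −0.24 ± 0.34 in CRISPRa cells (edgeR adjusted p = 0.659) and 0.00 ± 0.38 in SW480-B (edgeR adjusted p = 0.998). Per kilobase, the ratio of KRT18 to KRT8 was 0.438 in SW480 replicate 1 and between 0.623 and 0.852 in the other 8 libraries. KRT8 (chr12:53290971-53343738, minus strand) and KRT18 (chr12:53342655-53346690, plus strand) are neighbours on chromosome 12 in GRCh37 whose annotated transcripts overlap by 1084 bases on opposite strands. They also have many processed pseudogenes: 51 named copies of KRT8 together held 1.00% to 1.39% of the count of KRT8, and 67 copies of KRT18 held 0.119% to 0.235% of that of KRT18.

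KRT19, a short type I keratin without the usual tail that serves as a marker of ductal and glandular epithelium, was lower in CRISPRa cells by slightly less than the 2-fold limit. It was at 709, 913 and 1440 CPM in SW480, at 784, 1137 and 1121 CPM in SW480-B and at 547, 518 and 530 CPM in CRISPRa cells. The 3 CRISPRa libraries agree closely and lie below all 6 others. The log2 fold change was −0.98 ± 0.27 against SW480 (SE, edgeR adjusted p = 0.0725) and −0.94 ± 0.20 against SW480-B (edgeR adjusted p = 0.025), so the second passed the p threshold but not the fold limit. KRT19 was called against SW480 only without SW480 replicate 1 (−1.15, edgeR adjusted p = 0.0334), and against SW480-B only without SW480-B replicate 1 (−1.08, edgeR adjusted p = 0.0188), of the fits that each leave out 1 library. SW480-B and SW480 overlapped, with a log2 fold change of 0.00 ± 0.32 (edgeR adjusted p = 0.999).

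KRT23, a type I keratin found in glandular and gastrointestinal epithelium, separated the BASP1-expressing lines from each other. It was at 369, 428 and 1010 CPM in SW480, at 1082, 1153 and 707 CPM in SW480-B and at 343, 166 and 167 CPM in CRISPRa cells. Every CRISPRa library was below every library of the other lines, and SW480 replicate 3 reached the level of SW480-B. KRT23 was lower in CRISPRa cells than in SW480-B by 4.38-fold (log2 −2.13 ± 0.35, edgeR adjusted p = 0.00991). This call held in all 6 fits that leave out 1 library, with an edgeR adjusted p of at most 0.0495, and with CRISPRa replicates 2 and 3 summed (edgeR adjusted p = 0.0455). Against SW480 the change of −1.45 ± 0.48 did not pass (edgeR adjusted p = 0.104). The change of SW480-B against SW480, 0.71 ± 0.42, did not pass either (edgeR adjusted p = 0.445).

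KRT80, a type II keratin that is expressed in most epithelia and at cell margins, lay just under the limit of 2-fold. It was at 143, 190 and 156 CPM in SW480, at 308, 283 and 136 CPM in SW480-B and at 335, 331 and 329 CPM in CRISPRa cells. All CRISPRa libraries were above all others, while SW480-B replicate 3 lay below the SW480 libraries. The log2 fold change in CRISPRa cells against SW480 was 0.98 ± 0.16 (1.98-fold, edgeR adjusted p = 0.0198). With RLE size factors it was 1.01, which passes the limit. KRT80 was called in 0 of the 6 fits that leave out 1 library. The edgeR adjusted p was 0.066 to 0.1005 without SW480 replicate 2 or any CRISPRa replicate. It was 0.0954 with CRISPRa replicates 2 and 3 summed. In SW480-B the log2 fold change against SW480 was 0.58 ± 0.32 (edgeR adjusted p = 0.422). The BASP1-expressing lines differed by 0.44 ± 0.29 on the log2 scale (edgeR adjusted p = 0.401).

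KRT7, the type II keratin of ducts and of many glandular epithelia that is low in most of the colon, was highest in CRISPRa cells and lowest in SW480-B. KRT7 was at 5.50, 6.80 and 5.94 CPM in SW480, at 3.23, 2.01 and 3.52 CPM in SW480-B and at 24.8, 33.3 and 33.8 CPM in CRISPRa cells. None of the 3 lines overlapped with another. KRT7 rose 4.89-fold in CRISPRa cells (log2 2.29 ± 0.21, edgeR adjusted p = 0.00538), and the value for SW480-B was −1.05 ± 0.38 (edgeR adjusted p = 0.236). The difference between CRISPRa cells and SW480-B was 10.4-fold (log2 3.38 ± 0.28, edgeR adjusted p = 9.9e-04), and it was called in all 6 fits without 1 library, with an edgeR adjusted p of at most 0.00989. The rise against SW480 was called in 5 of 6 such fits and missed the threshold without SW480 replicate 2 (log2 2.40, edgeR adjusted p = 0.0501). KRT7 (chr12:52626304-52645970, plus strand) overlaps the annotated KRT86 by 2887 bases on the same strand and the antisense gene KRT7-AS by 2401 bases. KRT86 itself did not follow KRT7, with a log2 fold change of −0.69 in CRISPRa cells and 1.77 in SW480-B, neither of them called.

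KRT20, the marker of differentiated colon epithelium, was close to the limit of detection in all lines and was not tested in any comparison. It had 6, 26 and 7 counts in SW480, 1, 3 and 6 in SW480-B and 1, 3 and 3 in CRISPRa cells. The highest level, 0.903 CPM, was in SW480 replicate 2. Summed over each line, SW480 held 5.51 times the KRT20 of CRISPRa cells (95% counting interval 2.44 to 14.6) and 3.73 times that of SW480-B (1.83 to 8.37), and 26 of the 39 counts in SW480 came from replicate 2.

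The basal or squamous keratins were the members with the largest fitted decreases against SW480. KRT6A, a type II keratin induced in activated keratinocytes, was at 10.8, 16.4 and 14.9 CPM in SW480, at 0.308, 1.36 and 2.44 CPM in SW480-B and at 0.304, 0.102 and 0.305 CPM in CRISPRa cells. The 3 lines did not overlap. KRT6A fell by 5.89 ± 0.46 on the log2 scale in CRISPRa cells (59.5-fold, edgeR adjusted p = 0.00538), and this was called in 5 of the 6 fits that leave out 1 library but not without SW480 replicate 2 (edgeR adjusted p = 0.0501). In SW480-B the log2 fold change of −3.34 ± 0.65 narrowly missed the threshold (edgeR adjusted p = 0.0532). In the fit with a replicate block, which pairs the libraries of these lines, it passed (−3.63, edgeR adjusted p = 0.0261), and it also passed without SW480 replicate 1 (edgeR adjusted p = 0.0488) or replicate 3 (edgeR adjusted p = 0.0289), with RLE size factors, with no filter, with all 9 libraries in 1 fit and with DESeq2. It did not pass without SW480 replicate 2 (edgeR adjusted p = 0.153), without SW480-B replicate 1, 2 or 3 (edgeR adjusted p = 0.156, 0.236 and 0.0783) or with a filter of at least 1 CPM in 3 libraries (edgeR adjusted p = 0.0635). Summed over the lines, SW480-B held 5.62 times the KRT6A of CRISPRa cells (114 against 21 counts, 95% counting interval 3.51 to 9.44), a comparison in which KRT6A did not pass the filter for the test. KRT6A has the near-identical copies KRT6B and KRT6C, which held at most 8 and 4 counts in a library, and how the counting shared reads among the copies is not known here.

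KRT17, a type I keratin of basal cells and hair follicles, was nearly lost in both BASP1-expressing lines. It had 258, 327 and 58 counts in SW480 (8.45, 11.4 and 2.10 CPM), 0, 0 and 2 counts in SW480-B and 1, 0 and 0 counts in CRISPRa cells. All 6 BASP1-expressing libraries were below the level of 3 counts, and SW480 replicate 3 held less KRT17 than the other SW480 libraries. Summed over each line, SW480 held 307 times the KRT17 of SW480-B (95% counting interval 84.7 to 2541) and 636 times that of CRISPRa cells (114 to 25170). KRT17 was called lower in both (edgeR adjusted p = 0.0179 in SW480-B and 0.0104 in CRISPRa cells). Among fits without 1 library, each of the calls held only without SW480 replicate 1 or replicate 3; with any other library left out the edgeR adjusted p was 0.053 to 0.184 for SW480-B and 0.0577 to 0.0639 for CRISPRa cells. With CRISPRa replicates 2 and 3 summed, the edgeR adjusted p was 0.0571.

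KRT16, the usual type I partner of KRT6A, varied more between the SW480 libraries than between the lines. It was at 11.1, 4.06 and 0.543 CPM in SW480, at 0.692, 1.90 and 0.683 CPM in SW480-B and at 1.12, 0.508 and 0.543 CPM in CRISPRa cells. SW480 replicate 1 held 20.4 times the KRT16 of replicate 3, which lay among the BASP1-expressing libraries. The log2 fold changes of −2.91 ± 1.00 in CRISPRa cells (edgeR adjusted p = 0.115) and −2.28 ± 0.95 in SW480-B (edgeR adjusted p = 0.299) did not pass. Without SW480 replicate 3 both passed (−3.41, edgeR adjusted p = 0.0183, and −2.81, edgeR adjusted p = 0.0421). Without SW480 replicate 1 the values shrank to −1.68 (edgeR adjusted p = 0.255) and −1.06 (edgeR adjusted p = 0.676), and in the fit with a replicate block SW480-B had −1.60 (edgeR adjusted p = 0.31). The 6 named pseudogenes of KRT16 together held 20 to 203 counts in a library, more than KRT16 itself in 7 of the 9 libraries, and reads of KRT16 and of these copies may not be fully separated. KRT17 has 8 such copies, with 1 to 14 counts together.

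The keratins together were also compared. Across all 29 type I and 26 type II keratin genes, the summed level was 5068, 7199 and 9996 CPM per kb in SW480, 5777, 9111 and 7539 in SW480-B and 4141, 5210 and 5198 in CRISPRa cells. The lines overlapped, except that all CRISPRa libraries were below all SW480-B libraries (0.649 times the mean, exact two-sided permutation p = 0.1, the smallest that 3 against 3 libraries allow, adjusted p = 0.225 over 9 comparisons). The ratio of type I to type II keratin was 0.682 ± 0.0904 (SD, n = 3) in SW480, 0.769 ± 0.0646 in SW480-B and 0.811 ± 0.0154 in CRISPRa cells. Between CRISPRa cells and SW480 the libraries did not overlap (exact permutation p = 0.1, adjusted p = 0.225).

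Within this pool the share of basal keratins (KRT5, KRT6A, KRT6B, KRT6C, KRT14, KRT15, KRT16 and KRT17) was lower in CRISPRa cells. It was 12.5%, 19.4% and 27.2% in SW480, 14.7%, 14.8% and 24.1% in SW480-B and 2.06%, 4.85% and 4.90% in CRISPRa cells. CRISPRa cells did not overlap with SW480 or SW480-B (exact permutation p = 0.1 each, adjusted p = 0.225), while SW480-B and SW480 overlapped (exact permutation p = 0.7, adjusted p = 0.788). Almost all of this share was KRT5, with 19.4 ± 7.53% of keratin transcripts in SW480, 17.6 ± 5.43% in SW480-B and 3.81 ± 1.64% in CRISPRa cells. KRT6A, KRT16 and KRT17 each made up at most 0.132% of keratin transcripts in any library. KRT8 and KRT18 held 38.9 ± 10.4% and 25.4 ± 3.58% in SW480, and 47.4 ± 0.50% and 33.8 ± 3.35% in CRISPRa cells.

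**Figure D3:**
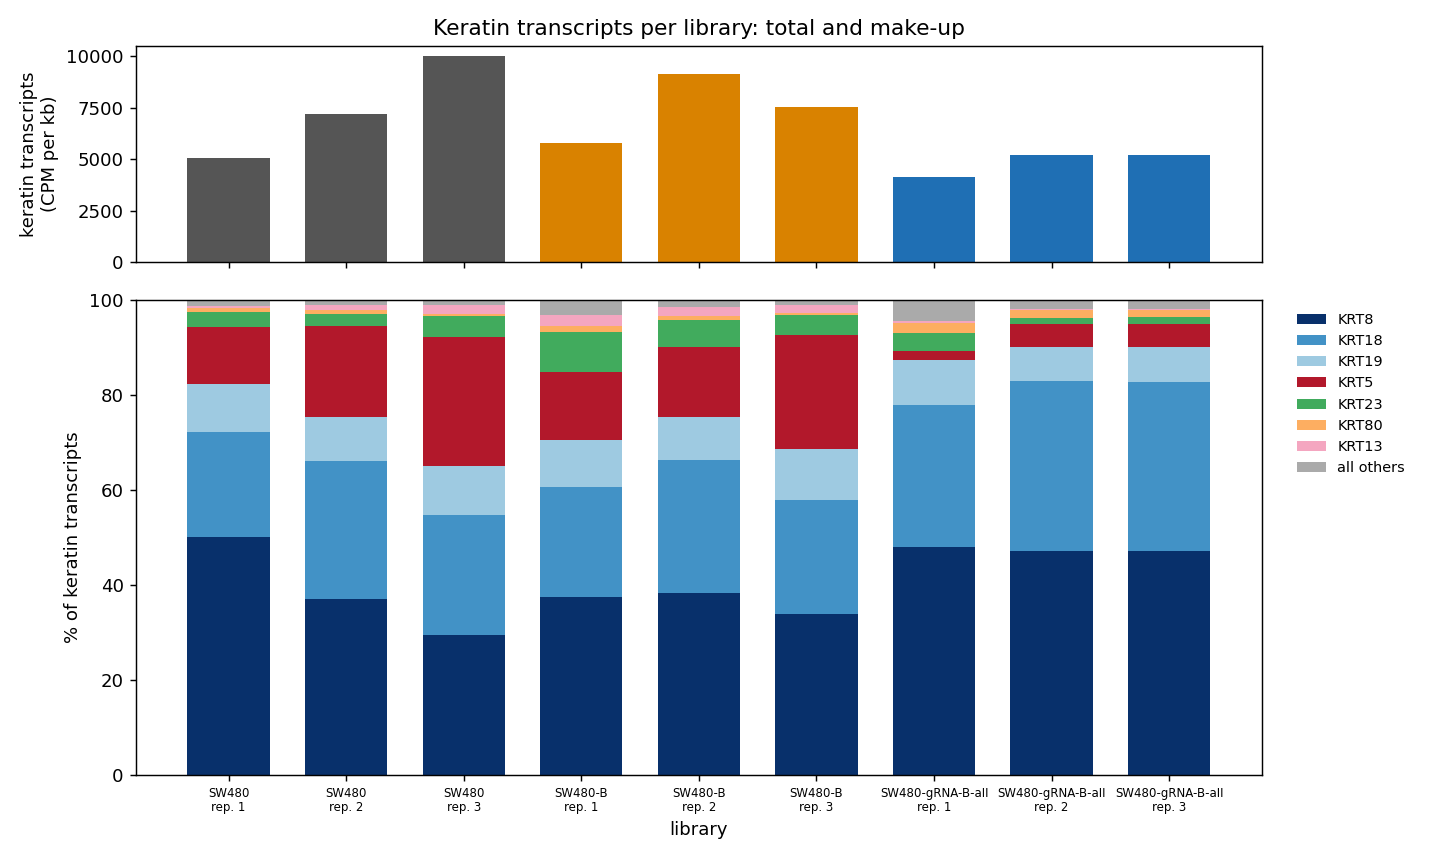
Upper panel, summed level of 55 keratin genes in each library as CPM per kilobase of canonical exons; lower panel, the percent of that sum from each named keratin. The KRT5 share is between 12.02% and 27.1% in the SW480 and SW480-B libraries and between 1.91% and 4.79% in the SW480-gRNA-B-all libraries.

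Among the other type II keratins, 8 of 22 genes passed the filter in the comparison of CRISPRa cells with SW480. KRT3 and KRT5 were called lower (0 higher, 2 lower, median log2 fold change −1.94). Of all genes tested, 4.66% were called lower and 1.89% higher, with a median log2 fold change of −0.05. KRT5 was at 1363, 3077 and 6057 CPM in SW480, at 1848, 2989 and 4029 CPM in SW480-B and at 177, 551 and 557 CPM in CRISPRa cells. It ranged widely within SW480 but was lowest in the 3 CRISPRa libraries. KRT5 fell by 3.07 ± 0.66 on the log2 scale against SW480 (edgeR adjusted p = 0.0389) and had a log2 value of −2.79 ± 0.47 against SW480-B (edgeR adjusted p = 0.0111). KRT3, a keratin of the cornea, had 135 counts in SW480 and 12 in CRISPRa cells (log2 −3.53, edgeR adjusted p = 0.0231). With edgeR, 0 of 8 (4 at an unadjusted p under 0.05, 0 by DESeq2) were called for SW480-B against SW480, beside 1.34% of all genes. Between the BASP1-expressing lines 1 of 7 was called lower, which was KRT5, beside 4.37% of all genes.

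Among the other type I keratins, 9 of 23 genes were tested in CRISPRa cells against SW480. KRT13, KRT36, KRT39 and KRT40 were called lower (0 higher, 4 lower, median −1.82), beside 4.66% of all genes (median −0.05). KRT13, a keratin of the upper layers of internal stratified epithelia, was at 48.7, 133 and 320 CPM in SW480, at 214, 308 and 214 CPM in SW480-B and at 31.0, 15.1 and 17.3 CPM in CRISPRa cells. It fell by 3.01 ± 0.67 on the log2 scale against SW480 (edgeR adjusted p = 0.0434) and had a log2 value of −3.54 ± 0.32 against SW480-B (edgeR adjusted p = 0.0013). KRT40, a hair keratin, had 221 counts in SW480, 174 of them in replicate 1, and 0 in SW480-B, where it was at least 70.4-fold lower against 3 counts over the line but not called (edgeR adjusted p = 0.0752; 0.0293 in the fit with a replicate block). It had 2 counts in CRISPRa cells, where SW480 held 109 times as much (95% counting interval 29.9 to 908, edgeR adjusted p = 0.0366). For SW480-B against SW480, edgeR called 0 of 8 other type I keratins (3 at an unadjusted p under 0.05, 2 by DESeq2), beside 1.34% of all genes. KRT13, KRT15 and KRT39 were the 3 of 6 called lower between CRISPRa cells and SW480-B, beside 4.37% of all genes.

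The calls of these keratins against SW480 also turned on single libraries. Without SW480 replicate 2, or without any of the CRISPRa replicates, none of KRT3, KRT5, KRT13, KRT36, KRT39 and KRT40 was called in CRISPRa cells against SW480, with an edgeR adjusted p of up to 0.164 (KRT39), and KRT36 was not called without SW480 replicate 1 either. With CRISPRa replicates 2 and 3 summed, all 6 of these calls were lost as well (edgeR adjusted p from 0.0954 for KRT3 to 0.154 for KRT13). Against SW480-B, KRT13 was called in all 6 such fits, KRT5 in all but the fit without SW480-B replicate 2 (edgeR adjusted p = 0.0512), KRT15 in all but that without CRISPRa replicate 3 (edgeR adjusted p = 0.0609; 0.053 with the summed replicates, also lost) and KRT39 in all but that without CRISPRa replicate 2 (edgeR adjusted p = 0.0555).

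The keratin genes lie in a type II cluster on chromosome 12, which also holds KRT18, and a type I cluster on chromosome 17. In CRISPRa cells against SW480, 1 gene of the 27 on chromosome 12 was called higher and 3 lower (13 tested), and 0 of the 28 on chromosome 17 were called higher and 5 lower (13 tested), beside 1.89% higher and 4.66% lower among all genes tested. KRT7 and KRT6A, which moved in opposite directions, lie in the same cluster. KRT16 and KRT17 are direct neighbours, and KRT5 follows KRT6A. The only gene called for SW480-B against SW480 in either cluster was KRT17 at the end of the type I cluster.

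**Figure D4:**
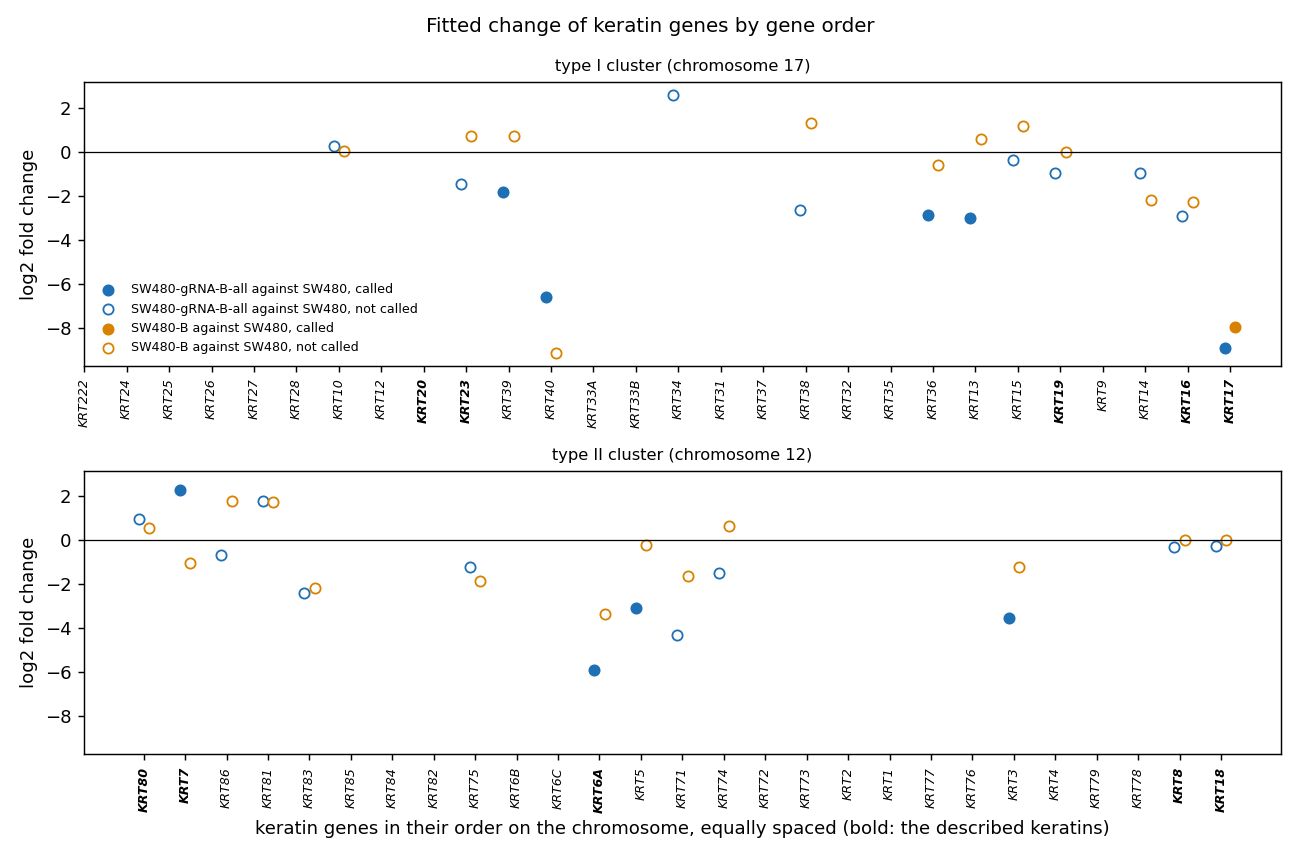
Fitted log2 fold change of the tested keratin genes in their order on chromosomes 17 (type I cluster) and 12 (type II cluster, with KRT18 at its end), equally spaced, in SW480-gRNA-B-all (blue) and SW480-B (orange) against SW480, filled where called and with the described keratins in bold. Genes without a point did not pass the filter on low counts; in SW480-gRNA-B-all called genes lie at several places of both clusters, and in SW480-B the only called gene is KRT17.

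Among the proteins that hold keratin filaments at desmosomes and hemidesmosomes, 17 of 22 genes were tested in CRISPRa cells against SW480. Of these, 3 were called lower (0 higher, median −0.20), beside 4.66% of all genes (median −0.05). They were the desmosomal cadherins DSC2, DSC3 and DSG2. DSC2 was at 20.1, 19.96 and 4.42 CPM in SW480, at 8.42, 16.6 and 6.76 CPM in SW480-B and at 0.203, 0 and 0.102 CPM in CRISPRa cells. It fell by 7.17 ± 1.00 on the log2 scale against SW480 (edgeR adjusted p = 0.0144) and had a log2 value of −6.65 ± 0.73 against SW480-B (edgeR adjusted p = 0.00239). DSC3 had 272 counts in SW480, 136 in SW480-B and 0 in CRISPRa cells, which is at least 89.7-fold lower than SW480 and at least 47.0-fold lower than SW480-B against 3 counts over the line (edgeR adjusted p = 0.0218 and 0.00575). DSG2 fell by 1.76 ± 0.32 against SW480 (edgeR adjusted p = 0.0256). DSP and JUP, the desmosomal plaque proteins desmoplakin and plakoglobin, had log2 fold changes of −0.42 and −0.74 and were not called. With edgeR, 0 of 18 anchors (2 at an unadjusted p under 0.05, 1 by DESeq2) were called for SW480-B against SW480, beside 1.34% of all genes. Between the BASP1-expressing lines DSC2, DSC3 and DSG4 were the 3 of 18 called lower, beside 4.37% of all genes. Against SW480 the calls of DSC2, DSC3 and DSG2 were lost without SW480 replicate 2 or any CRISPRa replicate (edgeR adjusted p up to 0.111, for DSG2) and also with CRISPRa replicates 2 and 3 summed (edgeR adjusted p = 0.0571, 0.0642 and 0.107), whereas against SW480-B those of DSC2 and DSC3 held in all 6 fits without 1 library, and that of DSG4 in 4, being lost without SW480-B replicate 2 or CRISPRa replicate 3 (edgeR adjusted p up to 0.0627).

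Proteins that bind or modify keratins and the other intermediate filament genes showed no called change by edgeR in any comparison. Of all genes 6.55%, 1.34% and 6.68% were called in these comparisons. Of 14 tested binders and modifiers, 5, 2 and 3 had an unadjusted p under 0.05 in CRISPRa cells against SW480, in SW480-B against SW480 and between the BASP1-expressing lines, and DESeq2 called 1, 0 and 1. Of 10 tested filament genes these counts were 0, 2 and 3, with 0, 2 and 1 called by DESeq2. Vimentin (VIM), the filament protein of mesenchymal cells, was at 49.0, 424 and 743 CPM in SW480, at 404, 1030 and 783 CPM in SW480-B and at 480, 437 and 434 CPM in CRISPRa cells. SW480 replicate 1 thus held the least VIM of all libraries, and the same library held the most KRT16 and the least KRT5 and KRT18 of the 3 SW480 libraries; the part of this difference between the SW480 libraries in the results was not tested beyond leaving out each of them.

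Among transcription factors of epithelial and squamous cells, 15 of 21 were tested in CRISPRa cells against SW480. CDX2, EHF and KLF5 were called lower (0 higher, 3 lower, median −0.36), beside 4.66% of all genes (median −0.05). EHF, an epithelial ETS factor, fell by 3.71 ± 0.61 on the log2 scale in CRISPRa cells (edgeR adjusted p = 0.0205). In SW480-B it fell by 2.38 ± 0.42 (edgeR adjusted p = 0.0396), the 1 of 15 factors called there, beside 1.25% of all genes called lower. CDX2, the intestinal homeobox factor, was at 28.9, 30.9 and 41.7 CPM in SW480, at 58.3, 67.8 and 59.2 CPM in SW480-B and at 5.51, 2.75 and 2.41 CPM in CRISPRa cells. The lines did not overlap, and CDX2 was lower in CRISPRa cells, with log2 fold changes of −4.12 ± 0.34 against SW480-B (edgeR adjusted p = 9.9e-04) and −3.28 ± 0.38 against SW480 (edgeR adjusted p = 0.00896). Between the BASP1-expressing lines 15 were tested. CDX2 and KLF5 were called lower, beside 4.37% of all genes, and GATA6 higher, beside 2.31%. Without SW480 replicate 2, and without at least 2 of the CRISPRa replicates, each of the 3 factors lost its call in CRISPRa cells against SW480 (edgeR adjusted p up to 0.125, for KLF5). With CRISPRa replicates 2 and 3 summed, CDX2, EHF and KLF5 were not called against SW480 (edgeR adjusted p = 0.0502, 0.0794 and 0.119), nor KLF5 and GATA6 against SW480-B (edgeR adjusted p = 0.0561 and 0.0595). In SW480-B, EHF lost its call without any of the SW480-B replicates or without SW480 replicate 2 (edgeR adjusted p up to 0.233). Against SW480-B, CDX2 was called in all 6 fits without 1 library, KLF5 in 4 (not without CRISPRa replicate 2 or 3) and GATA6 in 2 (only without SW480-B replicate 3 or CRISPRa replicate 1). TP63, the master regulator of basal keratinocytes, had at most 8 counts in a library and was not tested.

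Likeness of the members to all other genes with a mean of at least 1 CPM was measured as Pearson's r of log2(CPM + 0.5) over the 9 libraries, among 13738 genes and as a description only, since the libraries share 3 lines. KRT7 was most like TPM1 (r = 0.985), VAV1 (0.982) and BRSK2 (0.972). KRT80 was most like CTDSP2 (0.985), SMPD1 (0.981) and MOB3A (0.974). KRT6A was most like RBM10 (0.976), STMP1 (0.974) and SLC5A6 (0.967), and KRT17 like LINC02178 (0.999), CSRNP3 (0.996) and CRAT37 (0.996). KRT16 was most like NPHP4 (0.990), ZNF791 (0.988) and an unnamed gene, KRT23 like HABP4 (0.969), SUSD4 (0.967) and ACTN4 (0.963), and KRT19 like BMAL2 (0.964), ISL1 (0.960) and ETS2 (0.959). KRT18 was most like SET (0.970), BAG4 (0.962) and HAUS6 (0.961), and KRT8 like GTF3C2 (0.923), LDHB (0.920) and ZNF438 (0.915). No member was among the 3 genes most like another member. Among the members and KRT5, the highest r was that of KRT19 with KRT5 (0.920) and the lowest that of KRT7 with KRT23 (−0.899).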

How the data were processed

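Total RNA of the 3 lines was used by the authors for sequencing on an Illumina NovaSeq instrument with GRCh37 as the reference, and they deposited whole-number read counts per gene without normalization, a file for each library. The counting program and its strand setting are not given in the sources used here. The authors also deposited the normalized coverage along transcripts and the shares of aligned bases from Picard CollectRnaSeqMetrics, used for RNA quality only. Of the 63677 identifiers, 55665 were matched to a symbol (99.4% of counts). The 5 lines of each count file that name no gene (no feature 5.22% to 9.93%, ambiguous 3.09% to 3.44%) stayed out of library sizes and tests.

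Each pair of lines was tested over its own 6 libraries with edgeR 4.0.16 in R 4.3.3 (filterByExpr with a least count of 10 and a least total of 15, TMM, glmQLFit with robust set, glmQLFTest, Benjamini-Hochberg adjustment), and the procedure was tested on simulated data. A gene was called at an adjusted p under 0.05 and a change above 2-fold. CPM was scaled by TMM over the 9 libraries together. Levels per kilobase divide by the exons of the canonical transcript (GENCODE 44 lifted to GRCh37). Exact two-sided permutation tests were run in scipy 1.17.1. Ratios with 1 to 3 counts in a line carry a 95% Clopper-Pearson interval.

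The members and lists were chosen with earlier results of these data known. All members were named. Per comparison and per list other than the cell type markers, up to 4 called genes in each direction with the largest change were named. VIM, KRT14, KRT86, DSP, JUP, TP63, CDH17, VIL1, LUM, COL1A1, IVL, EPCAM, GPA33 and CDH1 were named after their values were seen. Promoter sequences and 1 gene of the list of transcription factors are not reported here. The labels number the replicates from 1 to 3. Deviations of same-numbered libraries correlated at 0.315, 0.446 and 0.409 between SW480-B and SW480, above the limit of 0.1, so the blocked fit is given beside results of this comparison where it changes a call. Alternatives were RLE size factors, no filter, at least 1 CPM in 3 libraries, all 9 libraries in 1 fit, the replicate block, each library left out, DESeq2 1.42.0, no limit on the fold, and the sum of SW480-gRNA-B-all replicates 2 and 3 as 1 library; for the keratin sums also counts without division by length, pseudogene counts added to the parent and, chosen after seeing the data, the union of all exons as length.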

Additional observations from a re-analysis of the deposited data

Results flagged for a closer look

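The keratins below were picked out because the change from SW480 in SW480-gRNA-B-all differed from that in SW480-B by a test of the difference itself, the edgeR quasi-likelihood test of SW480-gRNA-B-all against SW480-B, in which the shared SW480 libraries drop out. KRT7 was higher in SW480-gRNA-B-all by 3.38 on the log2 scale, with every SW480-gRNA-B-all library above every SW480 library and every SW480-B library below. KRT23 had a value of −2.13, with SW480-gRNA-B-all below both other lines. KRT5 (−2.79), KRT13 (−3.54), KRT15 (−1.51) and KRT39 (−2.49) were also at lower levels when SW480-gRNA-B-all was set against SW480-B, in 3 of 3 libraries each. KRT15 lay at 8.69 to 10.2 CPM in SW480-gRNA-B-all and 20.7 to 35.5 CPM in SW480-B, against 10.4 to 13.5 CPM in SW480. Outlying libraries could not be looked for by the same means, since each line has 3.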

How the results depend on the processing

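Each alternative was recomputed for the counts of called genes, for the members and for the keratin sums. Of the values of single members under the alternatives, 267 kept their direction and their side of the threshold, 16 newly passed it, 11 no longer did and 21 changed sign.

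Genes called numbered 1055 in SW480-gRNA-B-all against SW480, 2380 with DESeq2, 97 with replicates 2 and 3 of that line as 1 library, and 8 to 2659 without 1 library. In SW480-B against SW480 the 216 became 735 with no filter, 143 with at least 1 CPM in 3 libraries, 452 with all 9 libraries in 1 fit, 1096 with DESeq2, and 0 to 921 without 1 library (0 without SW480-B replicate 1). Between the BASP1-expressing lines the 1059 became 654 with all 9 libraries, 446 with the summed replicates, and 420 to 1548 without 1 library. Members called in the first comparison (3) were 6 with DESeq2, which added KRT16, KRT23 and KRT80, and 0 to 4 without 1 library. In SW480-B against SW480 (1) they were 2 with RLE, with no filter, with all 9 libraries, with DESeq2 and with the replicate block, each adding KRT6A, and 0 to 3 without 1 library. In the third comparison (2) they were 2 to 4 without 1 library. KRT80 passed the 2-fold limit against SW480 with RLE (1.01) and with no filter (1.025).

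Signs changed for values near 0. In SW480-B against SW480, KRT8 was at −0.0002844 with RLE, −0.003905 with no filter, −0.001455 with at least 1 CPM, −0.02008 with all 9 libraries and −0.01133 with the replicate block, and −0.201 to 0.156 without 1 library. KRT18 was at −0.01311 with RLE, −0.0192 with no filter, −0.01137 with at least 1 CPM, −0.02949 with all 9 libraries and −0.006604 with DESeq2, and −0.2679 to 0.2471 without 1 library. KRT19 was at 0.03926 with the replicate block and −0.1942 to 0.3218 without 1 library. Without 1 library, KRT18 also lay between −0.486 and 0.01971 when SW480-gRNA-B-all was set against SW480 and between −0.3958 and 0.05378 against SW480-B, and KRT16 between −1.039 and 0.0575 against SW480-B. The cause of these changes was not tested.

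With the replicate block, 1199, 319 and 1389 genes and 3, 2 and 2 members were called in the 3 comparisons. In SW480-B against SW480 the paired fit added KRT6A (and KRT40 among the other keratins) and changed no other member call. In the other comparisons same-numbered deviations correlated at 0.331, −0.0137 and 0.325 against SW480 and at 0.291, −0.113 and 0.318 against SW480-B. Only number 2 was below the limit of 0.1, so whether these libraries are paired is not known. With the block, KRT13 and COL1A1 lost their calls in SW480-gRNA-B-all against SW480 (edgeR adjusted p = 0.0711 and 0.0507).

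Without division by length the mean summed keratin level was 13170 CPM for SW480, 13290 CPM for SW480-B and 8215 CPM for the CRISPRa cells, and the type I to type II ratio was 0.5181, 0.6036 and 0.6255. With the union of exons as length, chosen after seeing the data, the sums were 3239, 3334 and 1960 CPM per kb and the ratios 0.9792, 1.111 and 1.258. The order of the lines stayed the same in all of these.

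Depth limits KRT17 and KRT20 in the BASP1-expressing lines, where most libraries hold at most 3 counts. Sums of 3 libraries a line cannot reach a permutation p under 0.1.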
